A study of Mus musculus with 23 samples.

Results

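The genes described here make cholesterol and fatty acids, or regulate their making. They are 30 listed genes of mouse embryonic stem cells, chosen by name among the 53607 gene rows of the deposited counts, and all 30 had enough reads to be tested. The list falls into 4 groups: 8 genes of the mevalonate arm, 11 genes of the sterol arm from squalene on, 6 regulators and transport genes, and 5 genes of the fatty acid arm. The list was not chosen by any measured value, but it was drawn up with earlier results of these data known. RNA of 23 libraries was sequenced after depletion of ribosomal RNA.

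All 8 groups share a Raslox/lox background. It is labelled H-Ras-/- and N-Ras-/-, carries a floxed RAS allele that OHT (4-hydroxytamoxifen) deletes, and expresses a tamoxifen-dependent Cre recombinase under the ubiquitin promoter (Ubiq-CreERT2). The reference cells were labelled ERF WT and had no drug. The RAS-deleted cells were labelled ERF WT and received OHT for 6 days. The ERF knockout cells were labelled ERF KO and had no drug, and the combined mutant cells were labelled ERF KO and received OHT for 6 days. Each line was kept in 2iL or moved for 48 hours to FA. The medium 2iL holds the MEK inhibitor PD0325901, the GSK3 inhibitor CHIR99021 and LIF in N2B27, and keeps the cells naive. FA holds FGF2, Activin A and 1% KOSR, a serum replacement, in N2B27 on fibronectin, and is used to move them toward epiblast-like cells. Each group had n = 3 except the reference cells in FA, with n = 2. OHT and the loss of RAS cannot be told apart in these groups, and neither can FGF2, Activin A, KOSR and the plate coating. The labels do not say whether replicates were separate cultures, or how many clones stand behind the ERF knockout, so the p-values measure the spread between libraries, which may be technical.

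Cholesterol is built from acetyl-CoA through mevalonate, isoprenoid diphosphates, squalene and lanosterol. The transcription factor SREBP2, product of Srebf2, drives most of these enzymes, while SREBP1, product of Srebf1, acts more on fatty acid synthesis. Both precursors sit in the endoplasmic reticulum with their escort SCAP. When sterols are plentiful, INSIG proteins hold the complex there, and when sterols fall, SCAP carries SREBP to the Golgi, where proteases free the active factor. Insig1 is itself an SREBP target, so its transcript follows SREBP activity in many cells. RAS proteins pass growth factor signals to the kinase ERK, and ERF is an ETS-family repressor that ERK inactivates.

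The 250 bases before the start that RefSeq gives are shown for 4 genes because these genes moved in different ways below: Hmgcs1 held the sterol regulatory motif, Lss and Fasn had the largest rises, and Ebp went against most of the list. Sequences are from RefSeq on GRCm38.p6 and run 5′ to 3′ on the strand of the gene. Capitals mark the sterol regulatory element TCACNCCAC and the CCAAT box CCAAT, each on either strand, so that ATTGG is a CCAAT box on the other strand.
Hmgcs1, chr13:119690101-119690350, plus strand: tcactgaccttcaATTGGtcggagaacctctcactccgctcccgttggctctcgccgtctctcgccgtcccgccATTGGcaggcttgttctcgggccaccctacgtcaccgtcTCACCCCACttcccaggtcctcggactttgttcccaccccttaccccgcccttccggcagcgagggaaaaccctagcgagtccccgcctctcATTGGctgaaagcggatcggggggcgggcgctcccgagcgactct
Lss, chr10:76531355-76531604, plus strand: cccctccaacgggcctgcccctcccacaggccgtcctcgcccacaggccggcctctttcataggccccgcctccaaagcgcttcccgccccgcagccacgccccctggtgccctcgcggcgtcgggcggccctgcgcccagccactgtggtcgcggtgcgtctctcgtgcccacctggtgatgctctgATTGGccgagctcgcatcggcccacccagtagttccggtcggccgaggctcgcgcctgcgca
Fasn, chr11:120824548-120824797, minus strand: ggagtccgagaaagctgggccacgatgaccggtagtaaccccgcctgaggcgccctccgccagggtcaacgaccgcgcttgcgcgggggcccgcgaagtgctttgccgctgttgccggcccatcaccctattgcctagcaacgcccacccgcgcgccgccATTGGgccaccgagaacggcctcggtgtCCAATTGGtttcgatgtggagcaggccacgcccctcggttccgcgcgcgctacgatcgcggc
Ebp, chrX:8193513-8193762, minus strand: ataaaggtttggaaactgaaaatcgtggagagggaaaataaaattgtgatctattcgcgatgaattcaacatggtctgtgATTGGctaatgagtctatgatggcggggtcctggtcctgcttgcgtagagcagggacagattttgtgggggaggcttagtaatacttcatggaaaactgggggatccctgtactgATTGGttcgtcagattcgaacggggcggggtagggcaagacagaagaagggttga

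The table of promoters held 24 of the 30 members, and Fdps, Fdft1, Sqle, Stard4, Scd1 and Scd2 were not among them. The motif TCACNCCAC was in 1 of the 24 (4.167%), Hmgcs1, against 331 of all 27025 genes of the table (1.225%). CCAAT was in 20 of the 24 (83.33%), against 10133 of the 27025 (37.49%). In Fasn, a CCAAT box on each strand overlapped in the run CCAATTGG. No CCAAT box shared a base with TCACNCCAC in the 4 stretches shown. For Lss, Fasn and Ebp the bases after the RefSeq start were found at the head of a GENCODE M21 transcript. For Hmgcs1 they were not, so its stretch is placed by RefSeq alone. These matches describe the letters of the stretch and do not show that a factor binds there.

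Total counts per library ran from 16221654 to 29874238, and the predicted gene Gm26917 took 17.65 to 27.86% of them. Its share did not overlap between 2iL and FA in RAS-deleted (24.87 to 25.09% and 17.65 to 22.5%), ERF knockout (25.15 to 26.15% and 23.59 to 25.1%) and combined mutant cells (27.08 to 27.86% and 19.6 to 21.41%), and its part in those results was not tested. In 2iL, Erf ran from 96.1 to 129 CPM in ERF knockout cells and from 70.6 to 85.8 CPM in reference cells, so the label is not borne out by a lower count. CPM here are counts scaled to a common library size, with TMM factors. A count per gene does not check a small deletion that leaves the transcript, and Hras and Nras likewise had reads in each library, so genotypes are given as labelled. Nras was low in replicate 2 of ERF knockout and of combined mutant cells in 2iL, at 7.74 and 5.32 CPM, against 30.8 to 52.3 CPM in their other replicates. Naive markers were high in the 4 groups in 2iL, where their 9 genes summed to 2797 to 3456 CPM per library, and mesoderm markers summed to at most 1.41 CPM in any library. In bulk RNA, fewer cells of a type and less RNA per cell cannot be told apart. Replicate 1 of each of the 4 groups with ERF wild type had genes of chromosome 8, which holds Mvd and Msmo1, higher than its other replicates by a median of 0.27 to 0.33 log2. Replicate 1 of each ERF knockout group was higher by 0.06 to 0.16 on chromosome 11, which holds Srebf1, Acly, Acaca and Fasn. Counts without these libraries are given beside the results they touch. Where no share of all genes in the same fit stands beside such a count, a change in it cannot be told apart from a change in the fit at large.

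Members differed widely in level. In reference cells in 2iL, the TPM, a level per transcript length, ran from 5.78 ± 0.727 (SD, n = 3) for Hsd17b7, a reductase late in sterol synthesis, to 153 ± 10.9 for Scd2, a stearoyl-CoA desaturase that makes monounsaturated fatty acids. Below Scd2 came Fdps (farnesyl diphosphate synthase, 106 ± 17.7), Acly (ATP citrate lyase, the source of cytosolic acetyl-CoA, 105 ± 21.7) and Hmgcs1 (HMG-CoA synthase, 94.4 ± 25.7), whose libraries overlapped one another. Srebf2 (85.0 ± 2.71) and Fasn (85.0 ± 27.7) followed and overlapped with them too. Insig1 (46.2 ± 7.81) was above Insig2 (7.23 ± 1.08) in TPM, with no overlap, and Srebf1 (33.1 ± 0.295) was below Srebf2, also with no overlap. Ggps1, Insig2 and Sc5d stood near the bottom and overlapped. Scd1 and Scd2, and Insig1 and Insig2, are close relatives whose reads the quantifier may have shared between them, so their separate values are less certain, as are those of Acat2, which resembles Acat3.

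The spread inside a group was uneven. In reference cells in 2iL, replicate 1 was the lowest for 18 of 30 members. In reference cells in FA, replicate 1 was above replicate 2 for 22 of 30, and their median log2 levels over the members, against the mean of reference cells in 2iL, were 0.51 and 0.17. Replicate 3 was the lowest for 24 of 30 members in ERF knockout cells in FA and again in combined mutant cells in FA. These gaps run through many members at once, so members of a library are not independent of one another.

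**Figure D1:**
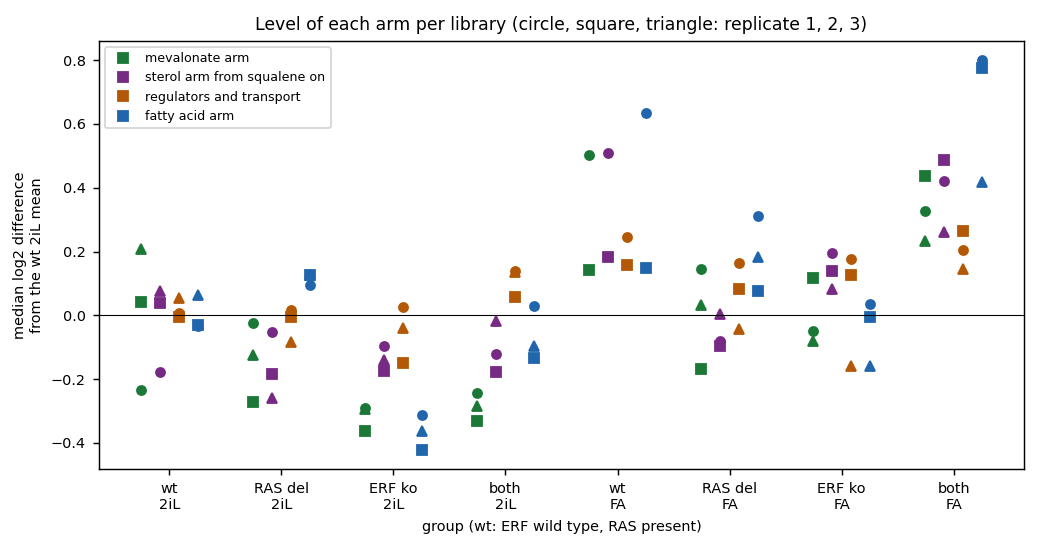
Each point is the median over the genes of 1 arm (colour) in 1 library (shape gives the replicate) of log2 CPM minus the mean of the reference cells in 2iL; wt, RAS del, ERF ko and both on the horizontal axis are the reference, RAS-deleted, ERF knockout and combined mutant cells. In FA the 2 reference libraries differ from each other in the mevalonate, sterol and fatty acid arms, and the 3 combined mutant libraries lie above 0 in all 4 arms.

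The move from 2iL to FA was compared in each line first. In reference cells 15 of 30 members rose and 2 fell, where a gene passed at a Benjamini-Hochberg adjusted p under 0.05 in edgeR's quasi-likelihood test over 20372 genes. Of all genes tested, 49.5% passed, 25.4% higher and 24.1% lower. The median log2 change of the members was 0.40, against 0.03 for all genes. The mevalonate arm had 4 of 8 higher, the sterol arm 6 of 11 higher and 1 lower, the regulators 3 of 6 higher, and the fatty acid arm 2 of 5 higher and 1 lower. Of the 17 calls, 11 were kept whichever single library was left out, and without replicate 1 of each ERF wild type group 11 rose and 4 fell. Cell-state markers moved in the same libraries. From 2iL to FA the naive markers summed to 3060 to 3456 and 221 to 254 CPM, the 7 formative and primed markers to 103 to 116 and 957 to 972 CPM, and the 6 primitive endoderm markers to 13.8 to 21.4 and 103 to 172 CPM. All 9 naive markers were lower and all 7 formative and primed markers higher with no overlap, and their part in the result was not tested.

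Lss, which closes squalene epoxide into lanosterol, rose most in the reference cells. It read 50.2, 62.5 and 61.0 CPM in 2iL and 143 and 99.0 CPM in FA, with no overlap, a 2.09-fold rise and a log2 change of 1.07 (standard error 0.13, adjusted p 4.44e-07 by edgeR). Acaca, the acetyl-CoA carboxylase that starts fatty acid synthesis, went from 123, 123 and 131 CPM to 260.3 and 210.3 CPM, a log2 change of 0.91 (standard error 0.11, adjusted p 3.3e-07 by edgeR). Dhcr7, the reductase of the last step of one branch to cholesterol, went from 61.8, 62.7 and 64.3 CPM to 108 and 111 CPM, a log2 change of 0.80 (standard error 0.09, adjusted p 1.88e-07 by edgeR). Both FA libraries stood above the 2iL libraries for these genes. Sqle, the squalene epoxidase that is often rate limiting, rose from 47.6, 76.9 and 84.2 CPM to 125 and 112 CPM (log2 change 0.78, SE 0.16, edgeR adjusted p 0.000534). The other rises were those of Mvk, Idi1, Fdps, Ggps1, Cyp51, Msmo1, Nsdhl, Srebf1, Insig1, Stard4 and Scd2. Among them Mvk, Nsdhl, Msmo1, Stard4 and Ggps1 lost the call when 1 reference library was left out. The log2 change of Msmo1 was 0.26 (adjusted p 0.326) without replicate 1 of the reference cells in FA.

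The 2 falls in reference cells were those of Ebp and Scd1. Ebp, the isomerase that moves the ring double bond, read 15.2, 18.98 and 21.8 CPM in 2iL and 12.5 and 10.6 CPM in FA, a log2 change of -0.69 (standard error 0.15, adjusted p 0.000414 by edgeR). Scd1, the second desaturase of the list, read 343, 299.7 and 295 CPM and 244 and 185 CPM, a log2 change of -0.54 (standard error 0.15, adjusted p 0.00512 by edgeR). Its groups did not overlap, but without replicate 2 of the reference cells in FA the change was -0.37 (adjusted p 0.109). Scd2 went the other way, from 880.3, 850.2 and 902 CPM to 1385 and 1317 CPM, a log2 change of 0.62 (standard error 0.09, adjusted p 2.18e-06 by edgeR). Hmgcs1, whose promoter stretch holds the sterol motif shown above, read 217, 311 and 339.9 CPM and 279 and 274 CPM with overlap and did not pass (log2 change -0.06, edgeR adjusted p 0.707). Fasn, the fatty acid synthase, read 466, 679 and 814 CPM and 988 and 706 CPM and did not pass either (log2 change 0.38, edgeR adjusted p 0.091).

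Among the regulators, Insig1 rose from 108, 123 and 132 CPM in 2iL to 171 and 206 CPM in FA in reference cells, a log2 change of 0.64 (standard error 0.11, adjusted p 3.1e-05 by edgeR). Srebf1 rose from 76.4, 73.8 and 78.6 CPM to 110.2 and 101 CPM, a log2 change of 0.47 (standard error 0.09, adjusted p 0.000163 by edgeR). With an offset for effective length Srebf1 was at 0.28 (adjusted p 0.0612 by edgeR) and lost the call, as did Ggps1 at 0.52 (adjusted p 0.0969 by edgeR). Srebf2 read 354, 326 and 328 CPM in 2iL and 333 and 416 CPM in FA, with overlap and no call (log2 change 0.15, edgeR adjusted p 0.105). Scap and Insig2 did not pass.

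In RAS-deleted cells the move to FA raised 8 of 30 members and lowered 3. Of all genes, 43% passed, 21.6% higher and 21.4% lower, and the members' median log2 change was 0.08. The share of members that passed, 36.7%, was thus under that of all genes, and the share that rose, 26.7%, was near it. With replicate 1 of each ERF wild type group left out, 9 rose and 4 fell. The rises were of Idi1, Fdps, Sqle, Lss, Cyp51, Hsd17b7, Insig1 and Acaca. Fdps rose from 105, 89.3 and 97.1 CPM to 164, 135 and 143 CPM, a log2 change of 0.60 (standard error 0.09, adjusted p 1.07e-05 by edgeR), and Sqle rose from 77.7, 74.3 and 73.4 CPM to 92.6, 107 and 130.4 CPM, a log2 change of 0.55 (standard error 0.15, adjusted p 0.0052 by edgeR). Acaca went from 129, 115 and 113 CPM to 165, 162 and 172 CPM, a log2 change of 0.48 (standard error 0.10, adjusted p 0.00044 by edgeR). Groups did not overlap for these 3 genes. Lss had a log2 change of 0.38 (standard error 0.12, adjusted p 0.0142 by edgeR) and lost the call without replicate 3 of RAS-deleted cells in FA (0.28, adjusted p 0.0885) or in 2iL (0.35, adjusted p 0.0509). Idi1 was lost without replicate 3 in FA (0.30, adjusted p 0.0687). Hsd17b7 was lost without replicate 2 (0.35, adjusted p 0.0568) or replicate 3 (0.29, adjusted p 0.0963) in 2iL, or replicate 1 in FA (0.32, adjusted p 0.0561).

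The 3 falls in RAS-deleted cells were of Scd1, Tm7sf2 and Scap. Scd1 went from 301, 259.8 and 262 CPM to 201, 141 and 119 CPM, a log2 change of -0.84 (standard error 0.13, adjusted p 3.74e-05 by edgeR). Tm7sf2, a sterol reductase that acts after Cyp51, went from 26.3, 29.5 and 31.3 CPM to 25.2, 16.8 and 19.2 CPM, a log2 change of -0.51 (standard error 0.11, adjusted p 0.000834 by edgeR). Scap, the escort of SREBP, went from 49.9, 54.9 and 53.4 CPM to 48.1, 41.6 and 43.6 CPM, a log2 change of -0.25 (standard error 0.07, adjusted p 0.00557 by edgeR). None of these 3 genes overlapped between the media. Dhcr7, with 60.7, 47.1 and 46.8 CPM in 2iL and 50.7, 46.8 and 46.2 CPM in FA, overlapped and did not pass (log2 change -0.11). Ebp, with 18.4, 17.8 and 21.8 CPM and 18.1, 19.01 and 23.6 CPM, overlapped too (log2 change 0.07). Replicate numbers paired these libraries, and with the replicate as a block Hmgcs1 also passed, at 0.21 (adjusted p 0.0249), and Acat2 at -0.29 (adjusted p 0.00835). In RAS-deleted cells in 2iL the naive markers summed to 3147 to 3260 CPM and the formative and primed markers to 104.4 to 109 CPM. In FA the naive markers summed to 1210 to 2016 CPM in RAS-deleted cells and to 221 to 254 CPM in reference cells, and the 7 formative and primed markers to 289.6 to 559 CPM and 957 to 972 CPM. The part of that difference in the result was not tested.

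In ERF knockout cells FA raised 14 of 30 members and lowered 2, with 46.9% of all genes passing, 24.6% higher and 22.3% lower, and a members' median of 0.26. Insig1 rose most, from 85.2, 83.4 and 85.4 CPM to 181, 199 and 157 CPM, a 2.11-fold rise (log2 change 1.08, standard error 0.10, adjusted p 5.63e-09 by edgeR). Fasn rose from 443, 379 and 355 CPM to 749, 647 and 646 CPM, a log2 change of 0.79 (standard error 0.16, adjusted p 0.000485 by edgeR), and Dhcr7 from 60.4, 52.2 and 51.9 CPM to 95.3, 93.4 and 85.3 CPM, a log2 change of 0.73 (standard error 0.09, adjusted p 2.16e-07 by edgeR). Groups did not overlap for these 3 genes. Ebp fell from 17.97, 18.5 and 20.97 CPM to 9.82, 9.82 and 8.65 CPM, a log2 change of -1.02 (standard error 0.13, adjusted p 8.7e-07 by edgeR), and Scd1 fell from 296, 285 and 298 CPM to 193, 176 and 166 CPM, a log2 change of -0.72 (standard error 0.13, adjusted p 0.000149 by edgeR). Srebf1 read 78.3, 63.7 and 67.3 CPM and 74.4, 65.9 and 64.8 CPM, with overlap and no call (log2 change -0.03). Naive marker sums went from 2797 to 2978 CPM in 2iL to 207 to 298 CPM in FA, formative and primed sums from 91.0 to 99.8 to 592 to 657 CPM, and primitive endoderm sums from 27.6 to 67.1 to 103 to 104 CPM. Their part in the result was not tested. Leaving out replicate 1 of each ERF knockout group, 10 rose and 2 fell, and the same counts came without replicate 2 of both ERF knockout groups in 2iL (41.2% of all genes). Of the 16 calls 12 were kept whichever library was left out, and those of Hmgcs1, Mvd, Msmo1 and Srebf2 were not: without replicate 2 in FA they were 0.20 (adjusted p 0.189), 0.51 (adjusted p 0.0791), 0.32 (adjusted p 0.172) and 0.16 (adjusted p 0.107). With the replicate block, which paired here, Ggps1 (0.43, adjusted p 0.000317), Acly (0.18, adjusted p 0.0206) and Fdft1 (0.32, adjusted p 0.00992) passed as higher and Pmvk as lower (-0.18, adjusted p 0.0456).

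The combined mutant cells had the most members raised by FA: 21 of 30 rose and 3 fell. Of all genes 55.7% passed, 28.3% higher and 27.4% lower, and the members' median log2 change was 0.52. All 5 genes of the fatty acid arm passed, 4 higher and 1 lower, as did 7 of 8 in the mevalonate arm and 9 of 11 in the sterol arm, of which Ebp was lower. Fasn rose 3.21-fold, from 342, 291 and 317 CPM to 1108, 1089.6 and 849.7 CPM, a log2 change of 1.68 (standard error 0.17, adjusted p 6.25e-08 by edgeR) and the largest of any member in any of the 12 comparisons. Lss rose from 55.9, 49.4 and 56.9 CPM to 127, 136 and 106 CPM, a log2 change of 1.18 (standard error 0.12, adjusted p 2.17e-08 by edgeR), and Sqle from 71.2, 61.3 and 70.7 CPM to 153, 158 and 129 CPM, a log2 change of 1.11 (standard error 0.15, adjusted p 2.79e-06 by edgeR). Each FA library stood above each 2iL library for these genes. Hmgcs1 rose from 248, 225 and 246 CPM to 347, 359 and 305 CPM, a log2 change of 0.49 (standard error 0.12, adjusted p 0.00094 by edgeR).

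Ebp, Insig2 and Scd1 fell in the combined mutant cells. Ebp went from 21.1, 22.1 and 24.5 CPM to 9.66, 8.45 and 8.95 CPM, a 2.50-fold fall (log2 change -1.32, standard error 0.13, adjusted p 1.17e-08 by edgeR). Insig2, the INSIG protein that is not an SREBP target in most cells, went from 11.5, 12.5 and 13.4 CPM to 7.72, 7.80 and 7.71 CPM, a log2 change of -0.69 (standard error 0.12, adjusted p 2.92e-05 by edgeR), while Insig1 went from 88.3, 81.4 and 99.1 CPM to 180.3, 189.9 and 172 CPM, a log2 change of 1.01 (standard error 0.10, adjusted p 1.02e-08 by edgeR). Scd1 went from 347, 359 and 400.2 CPM to 248, 244 and 242 CPM, a log2 change of -0.59 (standard error 0.13, adjusted p 0.000745 by edgeR). Naive marker sums went from 3088 to 3398 CPM in 2iL to 295 to 326 CPM in FA, formative and primed sums from 102 to 104 to 728 to 769 CPM, and neural sums from 35.7 to 37.6 to 114 to 124 CPM. The primitive endoderm sums, 18.8 to 26.5 and 22.1 to 32.4 CPM, overlapped. The part of these markers in the result was not tested. Leaving out replicate 1 of each ERF knockout group, 18 rose and 3 fell, and 17 and 4 without replicate 2 of both ERF knockout groups in 2iL (49.8% of all genes). Of the 24 calls 19 were kept whichever library was left out, and the 5 lost were those of Acly, Srebf1, Pmvk, Sc5d and Msmo1. Each of these was lost without replicate 2 of combined mutant cells in FA or in 2iL, as in Srebf1 at 0.19 (adjusted p 0.103) and Acly at 0.27 (adjusted p 0.0557). With the replicate block, which paired here, Tm7sf2 (-0.23, adjusted p 0.00867), Stard4 (0.25, adjusted p 0.00897) and Fdft1 (0.28, adjusted p 0.00605) also passed.

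Some members passed in the same direction in every line, and these 4 comparisons share no library. Idi1, Fdps, Sqle, Lss, Cyp51, Insig1 and Acaca rose in all 4 lines, 7 of 30 (23.3%) against 9.18% of all genes tested. Scd1 fell in all 4 (3.33% of the members, against 8.97% of all genes). In reference cells, Idi1 did not pass without replicate 1 of each ERF wild type group (log2 change 0.30, adjusted p 0.113). Cyp51, the lanosterol demethylase, had log2 changes of 0.60, 0.33, 0.51 and 0.65 in reference, RAS-deleted, ERF knockout and combined mutant cells. Fdps had 0.75, 0.60, 0.56 and 0.94 in the same order. Ebp fell in the 3 lines other than the RAS-deleted cells. No member but these 9 was called in the same direction in 3 lines except Dhcr7, Msmo1 and Scd2, which rose in the 3 lines other than the RAS-deleted cells.

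**Figure D2:**
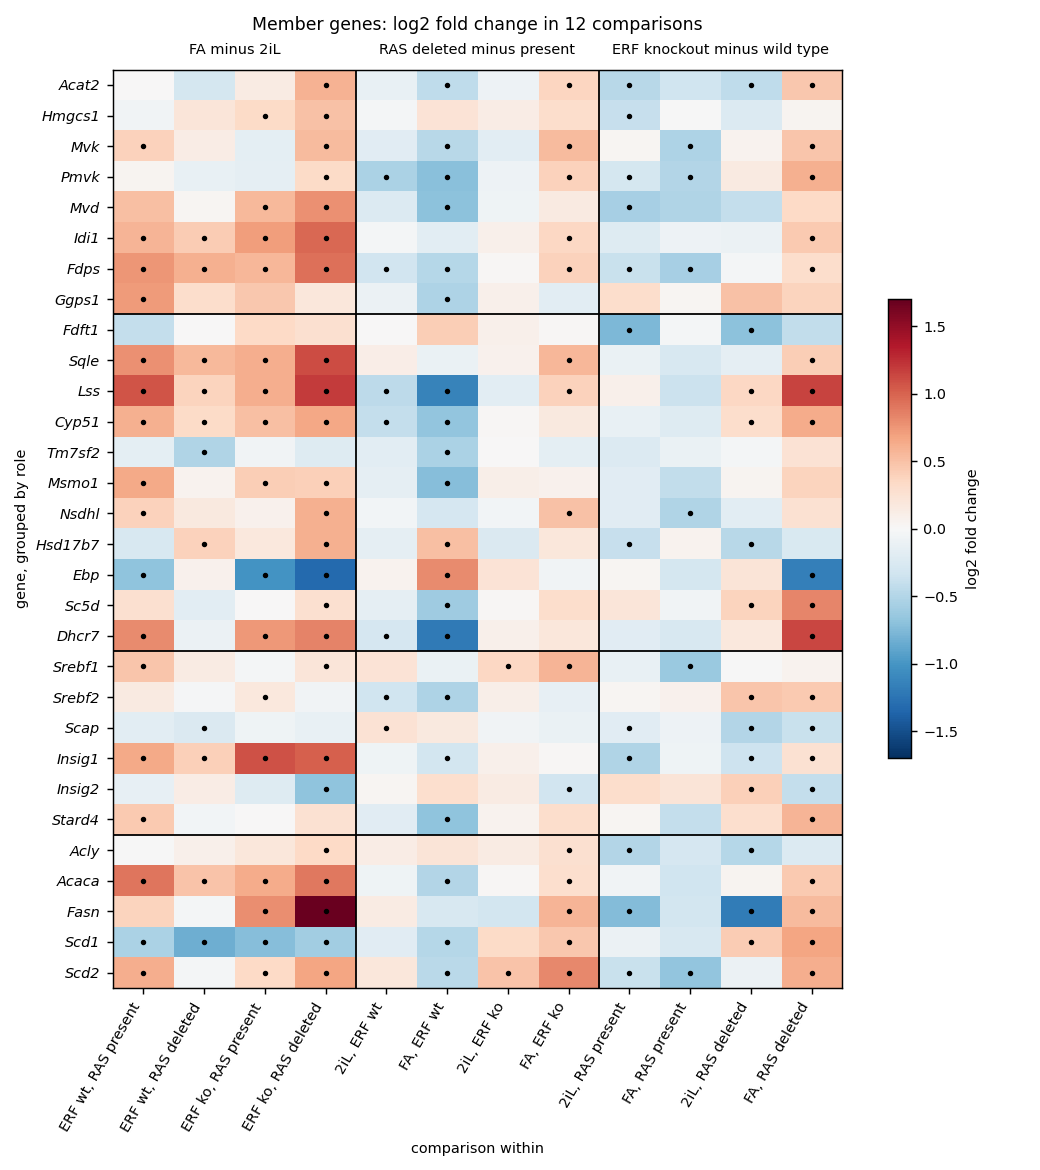
Colour gives the log2 fold change of each member (rows, grouped by role) in each of the 12 comparisons (columns), and a dot marks a gene that passed at an adjusted p under 0.05; the color scale ends at 1.7 in both directions. In the column for RAS deletion in FA, 18 members are marked lower with ERF wild type and 14 are marked higher with ERF knockout.

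Deleting RAS in 2iL changed few members and few genes at large. In ERF wild type cells 1 of 30 rose and 6 fell, so 23.3% of the members passed. That was above the 5.7% of all genes, 2.55% higher and 3.15% lower. The members' median log2 change was -0.12. Pmvk, the phosphomevalonate kinase, went from 34.7, 34.9 and 33.1 CPM in reference cells to 22.8, 22.8 and 25.0 CPM in RAS-deleted cells with no overlap, a log2 change of -0.54 (standard error 0.10, adjusted p 0.0033 by edgeR). Srebf2, the main SREBP of cholesterol synthesis, went from 354, 326 and 328 CPM to 275, 258 and 264 CPM with no overlap, a log2 change of -0.34 (standard error 0.07, adjusted p 0.00642 by edgeR). Cyp51 went from 99.3, 93.0 and 90.6 CPM to 75.3, 68.1 and 70.8 CPM, a log2 change of -0.40 (standard error 0.08, adjusted p 0.00411 by edgeR). These 3 calls were kept whichever library was left out. With an offset for effective length, 2 of 30 passed, Pmvk and Srebf2 as lower, beside 1.31% of all genes higher and 1.81% lower, and Cyp51 was at -0.36 (adjusted p 0.0588 by edgeR). Lss (50.2, 62.5 and 61.0 CPM against 44.0, 42.5 and 41.1 CPM, log2 change -0.44, standard error 0.12, adjusted p 0.0317 by edgeR), Fdps, Dhcr7 and, as the single rise, Scap (45.0, 42.3 and 46.6 CPM against 49.9, 54.9 and 53.4 CPM, log2 change 0.24, standard error 0.07, adjusted p 0.0428 by edgeR) did not keep it. The 7 calls became 3 without replicate 2 of the reference cells, or when replicate 2 or 3 of the RAS-deleted cells was left out, and 4 without replicate 3 of the reference cells. The fit of the compared groups alone gave 4, beside 4.9% of all genes. Some cell-state markers did not overlap between these groups. Tbx3, Lef1, Dab2, Cdx2 and T were higher in RAS-deleted cells, as in Cdx2 (0.914 to 1.84 against 0.105 to 0.279 CPM), and Pou5f1, Otx2, Sox7 and Sox1 were lower, as in Sox1 (3.98 to 5.12 against 8.04 to 12.9 CPM). Their part in the result was not tested. With replicate 1 of each ERF wild type group left out, 1 rose and 7 fell. With the replicate block, which paired here, Srebf1 (0.23, adjusted p 0.0182) and Scd2 (0.20, adjusted p 0.0238) passed as higher and Scd1 as lower (-0.19, adjusted p 0.026).

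In ERF knockout cells in 2iL, RAS deletion raised Scd2 and Srebf1 and lowered no member, with 1.31% of all genes passing, 0.677% higher and 0.633% lower. At an unadjusted p under 0.05, 3 members were higher and 0 lower in edgeR (7.4% and 7.22% of all genes), and DESeq2 called 2 and 0 (2.31% and 1.86%). Scd2 went from 683, 655 and 682 CPM to 896, 873 and 1056 CPM with no overlap, a log2 change of 0.48 (standard error 0.08, adjusted p 0.00548 by edgeR). Srebf1 went from 78.3, 63.7 and 67.3 CPM to 86.7, 88.5 and 91.2 CPM with no overlap, a log2 change of 0.35 (standard error 0.08, adjusted p 0.0389 by edgeR). The call of Srebf1 was lost when any single library of these groups other than replicate 1 of ERF knockout cells was left out, as at 0.29 (adjusted p 0.185) without replicate 2 of those cells. The replicate numbers paired these libraries, and with the replicate as a block 6 members passed, 4 higher and 2 lower, beside 10.5% and 9.49% of all genes in that fit. The added ones were Scd1 (0.31, adjusted p 5.69e-06) and Ebp (0.23, adjusted p 0.0239) as higher, and Fasn (-0.32, adjusted p 8.18e-06) and Lss (-0.19, adjusted p 0.0108) as lower. Scd2 alone passed without replicate 1 of each ERF knockout group (0.129% of all genes) and with the offset for effective length (0.319%), and 4 members passed with no filter on low counts (2.41%). Leaving out replicate 2 of both groups, the libraries low in Nras, 0 members and 0.00491% of all genes passed in edgeR, with 2 members higher and 0 lower at an unadjusted p under 0.05, and Scd2 was at 0.52 (adjusted p 0.0744). The primitive endoderm markers summed to 27.6 to 67.1 CPM in ERF knockout and 18.8 to 26.5 CPM in combined mutant cells, with Pdgfra and Dab2 lower with no overlap. Of the naive markers Klf2, Tbx3 and Tfcp2l1 were higher and Zfp42 and Nr0b1 lower, and Pou5f1, Dnmt3a and Nes were higher, all with no overlap. Gm26917 took 25.15 to 26.15% and 27.08 to 27.86% of counts. The part of these differences in the result was not tested.

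In FA, RAS deletion lowered most members in ERF wild type cells. Of 30 members 18 fell and 2 rose, with 41.3% of all genes passing, 19.9% higher and 21.5% lower, and the members' median log2 change was -0.47 against 0.00 for all genes. The falls took in 6 of 8 genes in the mevalonate arm, 6 of 11 in the sterol arm, 3 of 6 regulators and 3 of 5 in the fatty acid arm. Dhcr7 fell most, from 108 and 111 CPM in reference cells to 50.7, 46.8 and 46.2 CPM in RAS-deleted cells, a 2.29-fold fall with a log2 change of -1.20 (standard error 0.09, adjusted p 6.5e-10 by edgeR). Lss went from 143 and 99.0 CPM to 52.8, 50.5 and 62.0 CPM, a 2.19-fold fall with a log2 change of -1.13 (standard error 0.13, adjusted p 3e-07 by edgeR). Neither gene overlapped between the groups. Cyp51 went from 134 and 152 CPM to 85.9, 88.1 and 94.6 CPM, a log2 change of -0.67 (standard error 0.08, adjusted p 8.85e-07 by edgeR), and Pmvk from 39.2 and 31.2 CPM to 23.9, 19.3 and 21.7 CPM, a log2 change of -0.71 (standard error 0.11, adjusted p 1.81e-05 by edgeR). Msmo1, the sterol methyl oxidase, went from 144 and 90.8 CPM to 85.4, 63.8 and 63.6 CPM, a log2 change of -0.73 (standard error 0.18, adjusted p 0.00351 by edgeR) that became -0.34 (adjusted p 0.194) without replicate 1 of the reference cells. Srebf2 went from 333 and 416 CPM to 267, 268 and 248 CPM, a log2 change of -0.52 (standard error 0.08, adjusted p 9.92e-06 by edgeR), with no overlap.

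The 2 rises on RAS deletion in FA were those of Ebp and Hsd17b7. Ebp read 12.5 and 10.6 CPM in reference cells and 18.1, 19.01 and 23.6 CPM in RAS-deleted cells with no overlap, a log2 change of 0.81 (standard error 0.15, adjusted p 9.37e-05 by edgeR). Hsd17b7 read 16.2 and 13.8 CPM and 23.5, 21.7 and 19.1 CPM, a log2 change of 0.51 (standard error 0.14, adjusted p 0.00528 by edgeR), which became 0.41 (adjusted p 0.0768) without replicate 2 of the reference cells. Several central members did not pass: Hmgcs1 (279 and 274 CPM against 343, 313 and 320.1 CPM, log2 change 0.23), Sqle (125 and 112 CPM against 92.6, 107 and 130.4 CPM, log2 change -0.11), Fasn (988 and 706 CPM against 724, 629 and 755 CPM, log2 change -0.27) and Srebf1 (110.2 and 101 CPM against 113, 92.4 and 89.5 CPM, log2 change -0.11). Sqle, Fasn and Srebf1 overlapped between the groups.

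The reference cells in FA had 2 libraries, and they weigh on this comparison. When replicate 1 of the reference cells was left out, the 20 calls became 12, 2 higher and 10 lower. The count was 14, 2 higher and 12 lower, without replicate 1 of each ERF wild type group. Dhcr7, Lss, Cyp51, Pmvk, Fdps, Tm7sf2, Srebf2, Scd2 and Ebp kept the call whichever library was left out. Mvd, on chromosome 8, went from 58.0 and 30.2 CPM to 33.9, 23.5 and 24.4 CPM with overlap, and its log2 change of -0.70 became -0.13 (adjusted p 0.661) without replicate 1 of the reference cells. The primitive endoderm markers, 6 genes, summed to 103 to 172 CPM in reference cells in FA and to 14.2 to 19.05 CPM in RAS-deleted cells, beside the naive and primed sums given above. The general pluripotency markers, 3 genes, summed to 680.3 to 736 and 1125 to 1179 CPM. Their part in the result was not tested.

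In FA with ERF knocked out, RAS deletion raised members: 14 of 30 members rose and 1 fell, with 26.4% of all genes passing, 12.7% higher and 13.7% lower. The members' median log2 change was 0.29 against 0.00 for all genes. All 5 genes of the fatty acid arm rose, as did 5 of 8 in the mevalonate arm, 3 of 11 in the sterol arm and, of the regulators, Srebf1. Scd2 rose most, from 899, 873 and 786 CPM in ERF knockout cells to 1549, 1535 and 1408 CPM in combined mutant cells, a 1.76-fold rise with a log2 change of 0.81 (standard error 0.08, adjusted p 1.38e-07 by edgeR). Srebf1 went from 74.4, 65.9 and 64.8 CPM to 106, 104 and 98.0 CPM, a log2 change of 0.58 (standard error 0.08, adjusted p 2.45e-05 by edgeR). Fasn, a target of SREBP1, went from 749, 647 and 646 CPM to 1108, 1089.6 and 849.7 CPM, a log2 change of 0.58 (standard error 0.16, adjusted p 0.013 by edgeR). None of these 3 genes overlapped between the groups. Sqle went from 98.6, 104 and 94.1 CPM to 153, 158 and 129 CPM, a log2 change of 0.57 (standard error 0.15, adjusted p 0.0074 by edgeR), and Mvk, the mevalonate kinase, rose by a log2 change of 0.53 (standard error 0.11, adjusted p 0.00103 by edgeR). Scd1 went from 193, 176 and 166 CPM to 248, 244 and 242 CPM, a log2 change of 0.46 (standard error 0.13, adjusted p 0.0149 by edgeR).

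Insig2 was the single fall, from 10.4, 10.8 and 8.09 CPM to 7.72, 7.80 and 7.71 CPM, a log2 change of -0.33 (standard error 0.12, adjusted p 0.0389 by edgeR). Insig1 read 181, 199 and 157 CPM and 180.3, 189.9 and 172 CPM with overlap and did not pass (log2 change 0.01), and Srebf2 read 398, 401 and 378 CPM and 344, 357 and 365 CPM (log2 change -0.14) and did not pass. Hmgcs1 read 265, 315 and 244 CPM and 347, 359 and 305 CPM with overlap and did not pass (log2 change 0.29). The 15 calls became 7 without replicate 1 or replicate 2 of the combined mutant cells, 9 without replicate 2 of the ERF knockout cells, and 5 without replicate 1 of each ERF knockout group (11.4% of all genes). With the offset for effective length they became 9, all higher (19.6% of all genes), and Acat2, Idi1, Acly, Acaca, Insig2 and Lss lost the call, as in Acaca at 0.23 (adjusted p 0.187). Srebf1, Mvk, Sqle, Scd2, Fdps and Nsdhl kept the call whichever single library was left out. Fasn, Lss, Scd1 and Insig2 did not, as with 0.50 (adjusted p 0.0654) for Fasn, 0.36 (adjusted p 0.0679) for Lss, 0.44 (adjusted p 0.0575) for Scd1 and -0.34 (adjusted p 0.0832) for Insig2 without replicate 1 of the combined mutant cells. The 3 neural markers summed to 114 to 124 CPM in combined mutant cells in FA and to 51.6 to 65.3 CPM in ERF knockout cells, and the primitive endoderm markers to 22.1 to 32.4 CPM and 103 to 104 CPM. The formative and primed markers summed to 728 to 769 and 592 to 657 CPM, and Gm26917 took 19.6 to 21.41% and 23.59 to 25.1% of counts. The part of these differences in the result was not tested.

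**Figure D3:**
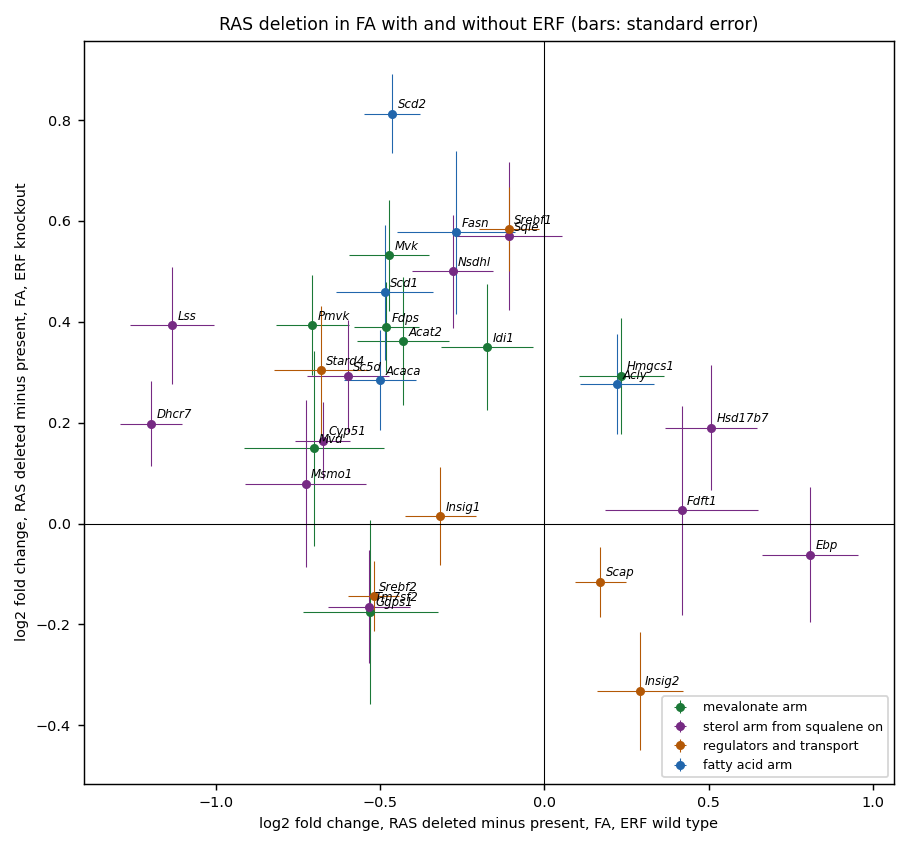
Each point is 1 member, with the log2 fold change of RAS deletion in FA in ERF wild type cells on the horizontal axis and in ERF knockout cells on the vertical axis, bars for the standard error, and color for its arm. The upper left corner holds the members that were lower with ERF wild type and higher with ERF knockout, among them Lss at -1.13 and 0.39 and Scd2 at -0.46 and 0.81.

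The difference between these 2 effects of RAS deletion was tested as an interaction, and the 2 effects share no library. With the effect in ERF wild type cells subtracted from that in ERF knockout cells, 20 of 30 members passed as higher and 3 as lower, with 28% of all genes passing, 14.4% higher and 13.6% lower. The members' median was 0.78 on the log2 scale against 0.02 for all genes. Lss had the largest difference, 1.53 (standard error 0.17, adjusted p 8.7e-07 by edgeR). Dhcr7 followed with 1.40 (standard error 0.13, adjusted p 2.75e-08 by edgeR) and Scd2 with 1.28 (standard error 0.12, adjusted p 2.91e-08 by edgeR). Pmvk had 1.10 (standard error 0.15, adjusted p 6.49e-06 by edgeR) and Mvk 1.00 (standard error 0.16, adjusted p 6.13e-05 by edgeR), so these 5 members differed by at least 2-fold. Srebf1 had 0.69 (standard error 0.12, adjusted p 0.000176 by edgeR), Srebf2 0.38 (standard error 0.10, adjusted p 0.00903 by edgeR) and Fasn 0.85 (standard error 0.24, adjusted p 0.0124 by edgeR). The 3 in the other direction were Ebp, with -0.87 (standard error 0.20, adjusted p 0.00175 by edgeR), Insig2 and Scap. With the offset for effective length, Insig2 (-0.32, adjusted p 0.52 by edgeR), Scap (-0.24, adjusted p 0.371 by edgeR) and Idi1 (0.49, adjusted p 0.0567 by edgeR) lost the call. Acat2, Hmgcs1's neighbor at the head of the mevalonate arm, had 0.79 (standard error 0.19, adjusted p 0.00341 by edgeR), while Hmgcs1 itself did not pass (0.06).

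Some members passed in opposite directions with and without ERF. Acat2, Mvk, Pmvk, Fdps, Lss, Acaca, Scd1 and Scd2 passed as lower with ERF wild type and as higher with ERF knockout, 8 of 30 (26.7%) against 394 of the 20372 genes tested (1.93%). This count moved when libraries were left out of the effect they belong to, with the other effect as in the fit of all libraries. It fell to 4 when replicate 1 of the reference cells in FA was dropped, and also without replicate 1 or replicate 2 of the combined mutant cells in FA, and to 5 without replicate 2 or replicate 3 of the ERF knockout cells in FA. With other libraries left out singly it ran from 6 to 9. It was 6 without replicate 1 of each ERF wild type group and 4 without replicate 1 of each ERF knockout group. Fdps and Scd2 kept their opposite calls in each of these settings. In Lss, the FA libraries read 143 and 99.0 CPM in reference cells, 52.8, 50.5 and 62.0 CPM in RAS-deleted cells, 93.6, 95.5 and 91.4 CPM in ERF knockout cells and 127, 136 and 106 CPM in combined mutant cells. The RAS-deleted cells were the lowest group in this set and did not overlap with the other 3. In Scd2 the same groups read 1385 and 1317 CPM, 1088, 924 and 927 CPM, 899, 873 and 786 CPM and 1549, 1535 and 1408 CPM, with the ERF knockout cells lowest. The interaction count was 15, 14 higher and 1 lower, without replicate 1 of the reference cells in FA. Without replicate 1 of each ERF wild type group it was 20, 19 higher and 1 lower, and without replicate 1 of each ERF knockout group 17. Of the 23 calls, 14 were kept whichever library was left out, among them Lss, Dhcr7, Scd2, Pmvk, Mvk, Fdps, Srebf1 and Ebp. Fasn (0.56, adjusted p 0.137), Acat2 (0.53, adjusted p 0.0595) and Insig2 (-0.54, adjusted p 0.0575) lost it without replicate 1 of the reference cells in FA, and Srebf2 (0.18, adjusted p 0.2) without replicate 2. Mvd (0.27, adjusted p 0.488), Msmo1 (0.41, adjusted p 0.249), Idi1 (0.38, adjusted p 0.219), Sqle (0.57, adjusted p 0.122) and Scap (-0.32, adjusted p 0.0595) lost it as well without replicate 1 of the reference cells in FA. These 5 were also lost with other single libraries left out, as at 0.73 (adjusted p 0.0924) for Mvd and 0.46 (adjusted p 0.0977) for Idi1 without replicate 2 of the combined mutant cells in FA. The naive marker sum, 1210 to 2016 CPM in RAS-deleted cells in FA, was 295 to 326 CPM in combined mutant cells, and its part in the result was not tested.

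**Figure D4:**
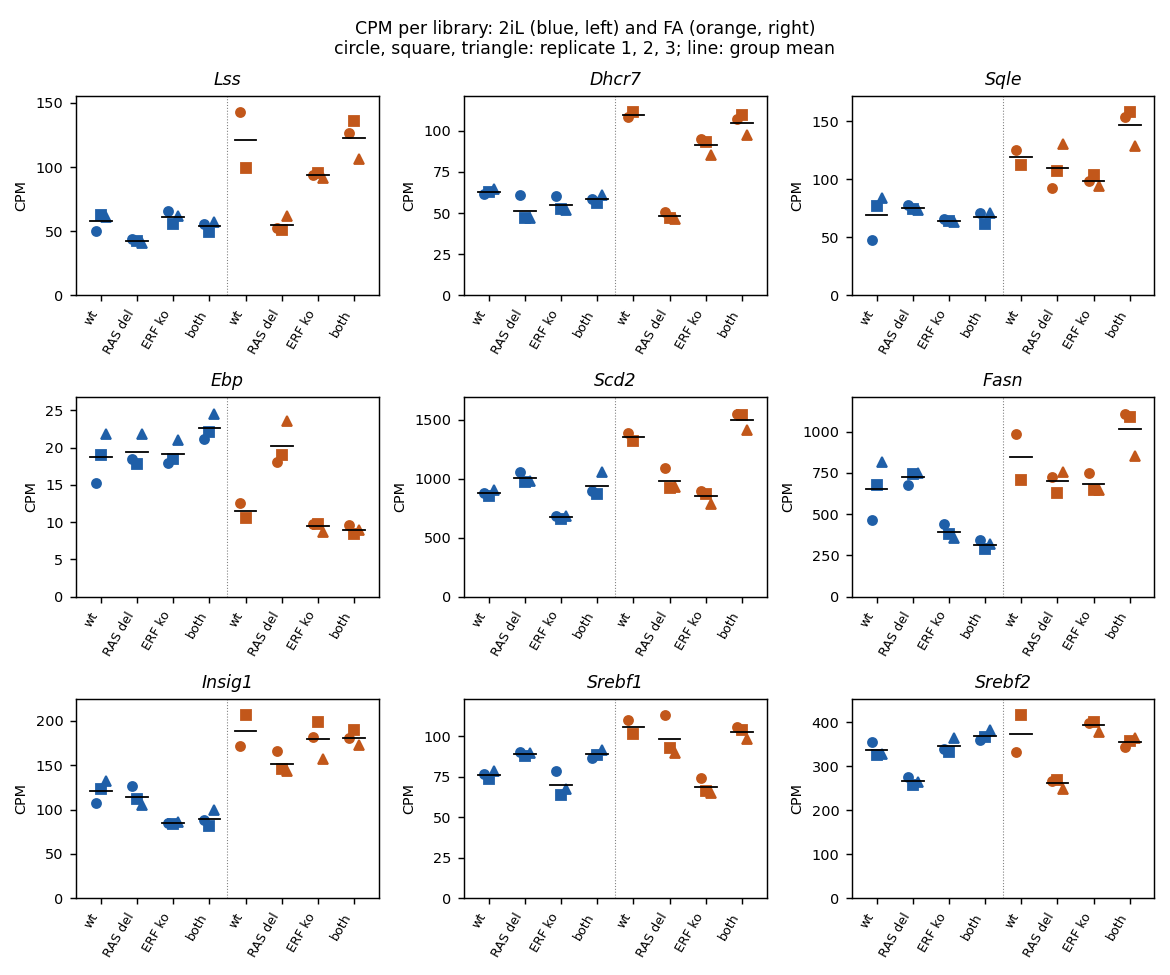
Each panel gives 1 gene and each point 1 library, in CPM on an axis from 0, with the group mean as a line; wt, RAS del, ERF ko and both are the reference, RAS-deleted, ERF knockout and combined mutant cells, in 2iL on the left and in FA on the right. Among the groups in FA, Lss and Dhcr7 are lowest and Ebp is highest in RAS-deleted cells, at levels near those in 2iL. Fasn is low in both ERF knockout groups in 2iL.

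Knocking out ERF lowered members while RAS was present. In 2iL 12 of 30 fell and 0 rose, with 27.8% of all genes passing, 13.3% higher and 14.6% lower, and a members' median log2 change of -0.19. At an unadjusted p under 0.05, edgeR had 1 member higher and 13 lower (18.2% and 19.6% of all genes), and DESeq2 called 0 and 12 (13.1% and 14.2%). Fdft1, the squalene synthase, read 73.0, 142 and 104 CPM in reference cells and 60.9, 56.0 and 69.7 CPM in ERF knockout cells with no overlap, a log2 change of -0.77 (standard error 0.21, adjusted p 0.011 by edgeR). Fasn read 466, 679 and 814 CPM and 443, 379 and 355 CPM with no overlap, a log2 change of -0.73 (standard error 0.16, adjusted p 0.00221 by edgeR). Mvd, the mevalonate diphosphate decarboxylase, read 29.8, 27.9 and 35.4 CPM and 20.9, 20.8 and 21.6 CPM, a log2 change of -0.56 (standard error 0.20, adjusted p 0.0447 by edgeR), and lost the call without any single library of these 6, as at -0.45 (adjusted p 0.165) without replicate 3 of the reference cells. Insig1 read 108, 123 and 132 CPM and 85.2, 83.4 and 85.4 CPM with no overlap, a log2 change of -0.51 (standard error 0.10, adjusted p 0.000436 by edgeR), and Hmgcs1 read 217, 311 and 339.9 CPM and 230.2, 209 and 220.2 CPM with overlap, a log2 change of -0.39 (standard error 0.12, adjusted p 0.0131 by edgeR). Scd2 read 880.3, 850.2 and 902 CPM and 683, 655 and 682 CPM with no overlap, a log2 change of -0.38 (standard error 0.08, adjusted p 0.000718 by edgeR). The other falls were of Acat2, Pmvk, Fdps, Hsd17b7, Scap and Acly.

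The 12 calls became 7 without replicate 2 of the reference cells or of the ERF knockout cells in 2iL. They became 16 without replicate 1 of each ERF wild type group and 5 without replicate 1 of each ERF knockout group (20.1% of all genes), and 6 without replicate 2 of both ERF knockout groups in 2iL (20.9%). Fasn, Acly, Insig1, Scd2 and Fdps kept the call whichever single library was left out. The primitive endoderm markers summed to 27.6 to 67.1 CPM in ERF knockout and 13.8 to 21.4 CPM in reference cells in 2iL, and 3 of these 6 genes were higher with no overlap and 0 lower. Other marker lists moved both ways. Of 9 naive markers, Klf4, Esrrb and Tbx3 were higher in ERF knockout cells and the other 6 lower, all with no overlap, and their sums were 2797 to 2978 and 3060 to 3456 CPM. Of 6 trophoblast markers, Tfap2c was lower (36.9 to 46.1 against 102 to 119 CPM) and Krt8 higher (9.32 to 20.4 against 1.11 to 3.61 CPM), with sums of 70.2 to 85.6 and 119.9 to 129 CPM. Of 3 neural markers, Nes was lower and Sox1 higher, with sums of 27.1 to 32.0 and 36.7 to 72.9 CPM. Of 7 formative and primed markers, Otx2 and Lef1 were lower and Sox3 higher, with sums of 91.0 to 99.8 and 103 to 116 CPM. What these markers add to the result was not tested. Fdft1 lost it without replicate 2 of the reference cells (-0.51, adjusted p 0.0713), and Hmgcs1 without replicate 2 (-0.34, adjusted p 0.0626) or replicate 3 (-0.26, adjusted p 0.112) of them, or replicate 2 of the ERF knockout cells (-0.36, adjusted p 0.0562).

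In FA with RAS present, 6 of 30 fell in ERF knockout cells and 0 rose, with 9.78% of all genes passing, 4.37% higher and 5.4% lower, and a members' median of -0.28. With no adjustment of p, 0 were higher and 15 lower in edgeR (12.3% and 12.6% of all genes), and DESeq2 called 0 and 7 (7.01% and 7.58%). Scd2 read 1385 and 1317 CPM in reference cells and 899, 873 and 786 CPM in ERF knockout cells, a log2 change of -0.66 (standard error 0.09, adjusted p 6.77e-05 by edgeR). Srebf1 read 110.2 and 101 CPM and 74.4, 65.9 and 64.8 CPM, a log2 change of -0.63 (standard error 0.09, adjusted p 0.000214 by edgeR). Fdps read 217 and 195 CPM and 145, 135 and 137 CPM, a log2 change of -0.57 (standard error 0.10, adjusted p 0.00109 by edgeR). None of these overlapped. Mvk, Pmvk and Nsdhl were the other falls. The 6 calls became 2, Scd2 and Srebf1, without replicate 1 of the reference cells, where Fdps was at -0.46 (adjusted p 0.0535), and 13 without replicate 2 of them. The formative and primed markers summed to 592 to 657 CPM in ERF knockout and 957 to 972 CPM in reference cells in FA, and the 3 general pluripotency markers to 577 to 624 and 680.3 to 736 CPM. Other lists had genes moving both ways with no overlap. Krt8, Krt18, Klf4 and Thy1 were higher in ERF knockout cells. Cdx2, Eomes, Dab2, Sox7, Pax6, Prdm14, Nr0b1 and Col1a2 were lower. The part of these differences in the result was not tested. With no filter on low counts 15 members fell and 0 rose, beside 7.33% of all genes passing in that fit. The count of members was 4 without replicate 1 of each ERF wild type group, and 4 without replicate 1 of each ERF knockout group.

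With RAS deleted, ERF knockout was compared in both media. In 2iL 6 of 30 rose (20%) and 7 fell (23.3%), shares near those of all genes, of which 39.1% passed, 19.2% higher and 19.9% lower. The members' median was -0.02. Fasn read 679, 741 and 746 CPM in RAS-deleted cells and 342, 291 and 317 CPM in combined mutant cells, a 2.28-fold fall with a log2 change of -1.19 (standard error 0.16, adjusted p 1.29e-05 by edgeR). Fdft1 read 96.9, 138 and 85.7 CPM and 63.9, 58.1 and 76.5 CPM, a log2 change of -0.69 (standard error 0.21, adjusted p 0.0148 by edgeR), which lost the call without replicate 2 of the RAS-deleted cells (-0.47, adjusted p 0.0962) or of the combined mutant cells (-0.60, adjusted p 0.0699). Scap read 49.9, 54.9 and 53.4 CPM and 40.0, 34.8 and 37.7 CPM, a log2 change of -0.49 (standard error 0.07, adjusted p 7.83e-06 by edgeR). None of the 3 overlapped. In the other direction, Srebf2 read 275, 258 and 264 CPM and 359, 367 and 382 CPM with no overlap, a log2 change of 0.48 (standard error 0.07, adjusted p 1.13e-05 by edgeR). Scd1 read 301, 259.8 and 262 CPM and 347, 359 and 400.2 CPM with no overlap, a log2 change of 0.43 (standard error 0.13, adjusted p 0.0144 by edgeR), and lost the call without replicate 2 (0.39, adjusted p 0.0565) or replicate 3 (0.40, adjusted p 0.0537) of the RAS-deleted cells, or without replicate 3 of the combined mutant cells (0.37, adjusted p 0.0647). Insig2 read 9.03, 9.89 and 9.44 CPM and 11.5, 12.5 and 13.4 CPM, a log2 change of 0.40 (standard error 0.12, adjusted p 0.00966 by edgeR). In 2iL the primitive endoderm markers summed to 12.0 to 18.4 CPM in RAS-deleted and 18.8 to 26.5 CPM in combined mutant cells. Among the trophoblast markers Tfap2c was lower in combined mutant cells (44.8 to 49.4 against 97.0 to 112 CPM), as was Cdx2, while Krt8 (10.9 to 15.4 against 1.84 to 4.25 CPM) and Krt18 were higher. Of the naive markers 3 were higher and 4 lower with no overlap, and Gm26917 took 24.87 to 25.09% and 27.08 to 27.86% of counts. The part of these differences in the result was not tested. In the fit that leaves out replicate 1 of each ERF wild type group 9 rose and 7 fell, and in the fit that leaves out replicate 1 of each ERF knockout group 5 rose and 5 fell. Leaving out replicate 2 of both ERF knockout groups in 2iL, 6 rose and 4 fell (30.8% of all genes).

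In FA with RAS deleted, 17 of 30 members were higher and 3 lower in combined mutant than in RAS-deleted cells, with 42.8% of all genes passing, 21.6% higher and 21.3% lower, and a members' median of 0.40. Lss read 52.8, 50.5 and 62.0 CPM in RAS-deleted cells and 127, 136 and 106 CPM in combined mutant cells, a log2 change of 1.15 (standard error 0.12, adjusted p 5.7e-08 by edgeR). Dhcr7 read 50.7, 46.8 and 46.2 CPM and 107, 109.6 and 97.5 CPM, a log2 change of 1.13 (standard error 0.09, adjusted p 3.53e-10 by edgeR). Sc5d, the desaturase just before Dhcr7, read 12.8, 14.8 and 16.8 CPM and 27.0, 27.3 and 25.0 CPM, a log2 change of 0.84 (standard error 0.11, adjusted p 2.38e-06 by edgeR). These 3 genes of the sterol arm did not overlap between the groups. Ebp, their neighbor in the pathway, read 18.1, 19.01 and 23.6 CPM and 9.66, 8.45 and 8.95 CPM with no overlap, a 2.24-fold fall with a log2 change of -1.17 (standard error 0.13, adjusted p 1.39e-07 by edgeR). Insig2 (10.8, 11.1 and 8.95 CPM against 7.72, 7.80 and 7.71 CPM, log2 change -0.41, standard error 0.12, adjusted p 0.00644 by edgeR) and Scap (48.1, 41.6 and 43.6 CPM against 34.8, 34.9 and 33.1 CPM, log2 change -0.37, standard error 0.07, adjusted p 0.000127 by edgeR) were the other falls. Of the 20 calls 16 were kept whichever library was left out. With the offset for effective length, Insig2 (-0.30, adjusted p 0.291 by edgeR), Scap (-0.13, adjusted p 0.432 by edgeR) and Insig1 (0.25, adjusted p 0.0545 by edgeR) lost the call. The naive marker sums were 1210 to 2016 CPM in RAS-deleted and 295 to 326 CPM in combined mutant cells, the formative and primed sums 289.6 to 559 and 728 to 769 CPM, and the neural sums 38.6 to 67.5 and 114 to 124 CPM. General pluripotency markers summed to 1125 to 1179 and 672 to 701 CPM, and primitive endoderm markers to 14.2 to 19.05 and 22.1 to 32.4 CPM. All 9 naive markers were lower in combined mutant cells with no overlap, and 5 of the 7 formative and primed markers were higher. Of the trophoblast markers, Tfap2c was lower (6.15 to 7.22 against 36.9 to 51.1 CPM), and Cdx2, Eomes, Krt8 and Krt18 were higher, as in Krt8 (10.5 to 15.2 against 1.75 to 5.72 CPM). The part of these differences in the result was not tested. Without replicate 1 of each ERF wild type group 21 rose and 3 fell, and without replicate 1 of each ERF knockout group 12 rose and 3 fell. This comparison shares the RAS-deleted and combined mutant libraries in FA with the RAS comparisons above.

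Whether the medium acted differently without RAS or without ERF was tested for 2 interactions. For RAS in ERF wild type cells, 2 members passed as higher and 4 as lower, with 24.5% of all genes passing, 12.8% higher and 11.7% lower. Dhcr7 had -0.91 (standard error 0.13, adjusted p 1.09e-05 by edgeR), Lss -0.69 (standard error 0.18, adjusted p 0.0058 by edgeR), Scd2 -0.66 (standard error 0.12, adjusted p 0.000171 by edgeR) and Acaca -0.43 (standard error 0.15, adjusted p 0.0393 by edgeR), so their change in FA was lower in RAS-deleted than in reference cells. Ebp, with 0.75 (standard error 0.19, adjusted p 0.00531 by edgeR), and Hsd17b7, with 0.66 (standard error 0.19, adjusted p 0.0118 by edgeR), were higher. Lss lost the call without replicate 1 of the reference cells in FA (-0.38, adjusted p 0.107), as did Acaca (-0.24, adjusted p 0.301), and Hsd17b7 lost it without replicate 2 of them (0.56, adjusted p 0.0663). Acaca was also lost when any of 5 other libraries was left out, as at -0.36 (adjusted p 0.103) without replicate 1 of the RAS-deleted cells in 2iL. With no filter on low counts 3 members passed as higher and 8 as lower, beside 13.2% of all genes in that fit. With the offset for effective length, Lss (-0.46, adjusted p 0.288 by edgeR), Hsd17b7 (0.58, adjusted p 0.135 by edgeR) and Acaca (-0.48, adjusted p 0.0718 by edgeR) lost the call. With replicate 1 of each ERF wild type group left out the count was 8, 3 higher and 5 lower, and Lss (-0.24, adjusted p 0.338) and Acaca (-0.17, adjusted p 0.556) did not pass. For ERF with RAS present, Mvk (-0.57, standard error 0.16, adjusted p 0.0308 by edgeR) and Srebf1 (-0.50, standard error 0.12, adjusted p 0.0116 by edgeR) passed as lower and none as higher, with 9.34% of all genes passing, 4.87% higher and 4.47% lower. With no adjustment of p, 4 were higher and 5 lower in edgeR (11.7% and 11% of all genes), and DESeq2 called 1 and 2 (6.72% and 5.89%). That count was 0 without replicate 1 of the reference cells in FA, 5 without replicate 2 of them and 4 without replicate 1 of the reference cells in 2iL. It was 1 without replicate 2 or replicate 3 of ERF knockout cells in 2iL, or without replicate 1 or replicate 2 of them in FA. Without replicate 1 of each ERF wild type group it was 6 (10.2% of all genes), and 1 without replicate 1 of each ERF knockout group (5.36%) or without replicate 2 of both ERF knockout groups in 2iL (6.68%). With no filter on low counts it was 7 (6.25%), with the offset for effective length 0 (5.8%), and in the fit of the compared groups alone 1 (8.15%).

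Changes of at least 2-fold were few among the members. With that size added to the adjusted p, FA against 2iL gave 1 member in reference cells (24% of all genes), 0 in RAS-deleted cells (16.5%), 2 in ERF knockout cells (19.7%) and 5 in combined mutant cells (24.9%). RAS deletion gave 0 in 2iL (1.2%) and 2 in FA (17.3%) with ERF wild type, and 0 in 2iL (0.211%) and 0 in FA (6.88%) with ERF knockout. ERF knockout gave 0 in 2iL (9.72%) and 0 in FA (2.36%) with RAS present, and 1 in 2iL (13%) and 3 in FA (16.6%) with RAS deleted. The interactions gave 5 for RAS by ERF in FA (13.7%), 0 for medium by RAS (11.9%) and 0 for medium by ERF (4.27%). Most changes of the members were thus under 2-fold where they passed.

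Genes of the same metabolism outside the 30 were followed in 2 wider lists, one of 30 other sterol genes (29 tested) and one of 45 other fatty acid genes (43 tested). In FA against 2iL, 13 of 29 sterol genes rose and 3 fell in reference cells, 10 and 3 in RAS-deleted cells, 14 and 4 in ERF knockout cells, and 15 and 5 in combined mutant cells. The shares of all genes tested that rose and fell were 25.4% and 24.1%, 21.6% and 21.4%, 24.6% and 22.3%, and 28.3% and 27.4% in the same order. In reference cells the sterol shares were 44.8% and 10.3%. Of 43 fatty acid genes, 10 rose and 16 fell in reference cells, 3 and 14 in RAS-deleted cells, 13 and 12 in ERF knockout cells, and 6 and 17 in combined mutant cells. In reference cells these were 23.3% and 37.2%. On RAS deletion in FA with ERF wild type, 5 of the sterol genes rose and 9 fell, and 5 of the fatty acid genes rose and 16 fell, beside 19.9% and 21.5% of all genes. With ERF knockout, 3 and 5 of the sterol genes and 3 and 12 of the fatty acid genes did, beside 12.7% and 13.7%. For ERF knockout in FA with RAS deleted the counts were 7 and 7, and 12 and 6, beside 21.6% and 21.3%.

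Some of these wider genes, among them Abca1, Soat1, Acsl5 and Cpt1a, had larger changes than any member had. Abca1, which exports cholesterol from cells, ran from 75.5 to 77.3 CPM in reference cells in 2iL to 3.45 to 5.40 CPM in FA, a log2 change of -4.14 (standard error 0.24, adjusted p 3.2e-11 by edgeR). In FA it was at 34.0 to 64.6 CPM in RAS-deleted cells, a log2 change on RAS deletion of 3.55 (standard error 0.23, adjusted p 4.94e-10 by edgeR), and at 4.90 to 6.30 CPM in combined mutant cells. The RAS by ERF interaction for Abca1 was -3.40 (standard error 0.31, adjusted p 1.81e-07 by edgeR). Soat1, which stores cholesterol as esters, went the other way with the medium, from 8.82 to 10.2 CPM to 82.6 to 83.7 CPM in reference cells, a log2 change of 3.10 (standard error 0.23, adjusted p 3.15e-09 by edgeR). In the fatty acid list, Acsl4 and Acsl5 activate long-chain fatty acids, and Acsl5 had 36.8 to 39.1 CPM in reference cells in FA and 4.91 to 7.40 CPM in RAS-deleted cells, a log2 change of -2.64 (standard error 0.16, adjusted p 8.09e-12 by edgeR). Acsl4 had 91.9 to 106 CPM and 32.7 to 40.7 CPM, a log2 change of -1.47 (standard error 0.09, adjusted p 1.85e-11 by edgeR). The RAS by ERF interaction was 2.84 (standard error 0.21, adjusted p 1.18e-09 by edgeR) for Acsl5 and 1.86 (standard error 0.12, adjusted p 3.54e-10 by edgeR) for Acsl4. Cpt1a, which admits fatty acids to mitochondria for oxidation, fell from 132 to 143 CPM in 2iL to 15.4 to 19.9 CPM in FA in reference cells, a log2 change of -2.98 (standard error 0.28, adjusted p 8.43e-08 by edgeR). Mlxipl, a sugar-responsive activator of lipid synthesis, was lower in ERF knockout than in reference cells in 2iL, at 10.3 to 12.7 against 25.4 to 29.2 CPM, a log2 change of -1.23 (standard error 0.19, adjusted p 4.87e-05 by edgeR).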

How the data were processed

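Per the labels' protocols, RNA was made into strand-specific libraries and read as pairs. Per the submitters' processing notes, bcl2fastq 2.20.0, fastp 0.20.0 and Salmon were used, with the build mm10. The authors deposited estimated counts, TPM and effective lengths per gene and library, per the file headers, and a series table whose cells equal the rounded estimated counts (0 differ). TPM served only to order levels between genes.

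The estimated counts were rounded and tested with edgeR 4.0.16 in R 4.3.3 (filterByExpr, TMM, robust quasi-likelihood test, a single model for the 23 libraries in which each group has its own term). Of 53607 rows 20372 were tested, and Benjamini-Hochberg adjustment ran over these. Standard errors were derived from the log2 fold change and its F statistic. Scripts were tested on simulated data. Depth was 16221654 to 29874238 counts per library, and every member had at least 166 counts in each library, so the spread between libraries was used for every test. Counting error of reads without molecular identifiers was not used.

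Alternatives were RLE size factors, no low-count filter, DESeq2 1.42.0, fits of the compared groups only, with and without the replicate number as a block, an effective length offset, a 2-fold rule and leaving out each library. Replicate numbers of the labels were taken as pairs where, in 3 pairs, every correlation of deviations from the group means exceeded 0.1. This held for the medium in RAS-deleted, ERF knockout and combined mutant cells (0.103 to 0.313) and for RAS deletion in 2iL (0.175 to 0.38).

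Members and lists were chosen with earlier results of these data known. Named members are Hmgcs1, Sqle, Srebf1, Srebf2, Insig1, Fasn, Scd1 and Scd2, and in each of 12 comparisons the 3 largest rises and falls that passed; other members are given inside their role group. Genes of the wider lists are named if among the 3 largest passing rises or falls of a comparison. A gene of the naming rule is not reported here. Promoters are from RefSeq on GRCm38.p6, and GENCODE M21 gave chromosomes.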

Additional observations from a re-analysis of the deposited data

Results flagged for a closer look

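These values are differences between 2 effects that passed edgeR's test of the difference itself, on the log2 scale, and no cause was tested. RAS deletion in FA acted differently with ERF knockout than with ERF wild type for 23 members, 76.7% of them, against 28% of all genes. In the mevalonate arm the differences were 0.79 for Acat2, 1.00 for Mvk, 1.10 for Pmvk, 0.85 for Mvd, 0.52 for Idi1 and 0.87 for Fdps. In the sterol arm they were 0.68 for Sqle, 1.53 for Lss, 0.84 for Cyp51, 0.81 for Msmo1, 0.78 for Nsdhl, -0.87 for Ebp, 0.89 for Sc5d and 1.40 for Dhcr7. Among the regulators they were 0.69 for Srebf1, 0.38 for Srebf2, -0.29 for Scap, -0.62 for Insig2 and 0.98 for Stard4, and in the fatty acid arm 0.78 for Acaca, 0.85 for Fasn, 0.94 for Scd1 and 1.28 for Scd2. Acat2, Mvd, Idi1, Sqle, Msmo1, Scap, Insig2 and Fasn did not pass without replicate 1 of the reference cells in FA, nor Srebf2 or Scap without replicate 2 of them. With the offset for effective length, Idi1, Scap and Insig2 did not pass.

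The medium acted differently in RAS-deleted than in reference cells for Lss (-0.69), Hsd17b7 (0.66), Ebp (0.75), Dhcr7 (-0.91), Acaca (-0.43) and Scd2 (-0.66). This was 20% of the members, under the 24.5% of all genes. The medium acted differently in ERF knockout than in reference cells for Mvk (-0.57) and Srebf1 (-0.50), 6.67% of the members, under the 9.34% of all genes. Of these, Lss, Acaca and both ERF values did not pass without replicate 1 of the reference cells in FA, nor Hsd17b7 without replicate 2 of them. With the offset for effective length, Lss, Hsd17b7, Acaca and both ERF values did not pass.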

How the results depend on the processing

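Of 6570 values of members under alternatives, 5968 stayed on the same side of the threshold, 398 lost the call and 201 gained it. In 3 the direction reversed where the member passed in the main fit, the alternative or both. A change of sign where neither fit passed is counted among the 5968. The causes were not tested. RLE size factors and DESeq2 gained 2 and 6 calls and lost 1 and 0. The effective length offset gained 11 and lost 33. In reference cells in FA against 2iL, Acat2 reversed to -0.41 without replicate 1 of each ERF wild type group, and Stard4 to -0.012 without replicate 1 of those cells in FA (0.75 without replicate 2 of them) and to -0.089 without replicate 1 of each ERF wild type group. With the added demand of a 2-fold change, the count of members in FA against 2iL was 1 in reference, 0 in RAS-deleted, 2 in ERF knockout and 5 in combined mutant cells. For RAS deletion it was 0 in 2iL and 2 in FA with ERF wild type, and 0 in both media with ERF knockout. For ERF knockout it was 0 in both media with RAS present, 1 in 2iL and 3 in FA with RAS deleted, and for the interactions 5 for RAS by ERF, 0 for medium by RAS and 0 for medium by ERF. With the effective length offset, RAS deletion in 2iL gave 2 with ERF wild type and 1 with ERF knockout, RAS deletion in FA with ERF knockout gave 9, and medium by ERF gave 0. Beside losses given in the results, it lost Hsd17b7 for FA in RAS-deleted cells and Hmgcs1 for FA in ERF knockout cells. It lost Ggps1 for RAS deletion in FA with ERF wild type. For ERF knockout in 2iL it lost Pmvk, Hsd17b7 and Scap with RAS present, and Sc5d and Cyp51 with RAS deleted. With the compared groups alone, RAS deletion in 2iL with ERF wild type gave 4 and medium by ERF gave 1. With no low-count filter, RAS deletion in 2iL with ERF knockout gave 4 (2.41% of all genes), ERF knockout in FA with RAS present 15 (7.33%), medium by RAS 11 (13.2%) and medium by ERF 7 (6.25%). With the replicate block, RAS deletion in 2iL with ERF knockout gave 6, where the numbers paired the libraries. ERF knockout in 2iL with RAS present gave 7 (24.2% of all genes), where they share only a number. Medium by ERF gave 1 (7.77%). By the rule used, the numbers paired its ERF knockout libraries between media and did not pair its reference libraries. Replicate 1 of the reference cells did have the chromosome 8 rise in both media. Beside the members named with a blocked value in the results, the block changed no call in a paired comparison. Where the numbers do not pair libraries, whether a call lost with the block is a weaker effect was not tested. For RAS deletion in FA with ERF wild type, the block lost Mvk, Insig1, Scd1 and Scd2 (-0.42, adjusted p 0.0681 by edgeR). It gained Fdft1 (0.52, adjusted p 0.00756 by edgeR). The reference cells in FA had 2 libraries, so the rule of 3 pairs could not be met in that comparison. Without replicate 1 of each ERF knockout group, RAS deletion with ERF knockout gave 1 in 2iL and 5 in FA, ERF knockout in 2iL with RAS present gave 5 and medium by ERF gave 1; without replicate 1 of each ERF wild type group, medium by ERF gave 6. Without replicate 2 of both ERF knockout groups in 2iL, RAS deletion in 2iL with ERF knockout gave 0, ERF knockout in 2iL with RAS present 6 and medium by ERF 1. These 3 settings were chosen after seeing the data.

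Leaving out single libraries, the counts ran from 14 to 19 in reference, 9 to 12 in RAS-deleted, 12 to 14 in ERF knockout and 20 to 23 in combined mutant cells for FA against 2iL. For RAS deletion they ran from 3 to 6 in 2iL and 12 to 20 in FA with ERF wild type, and from 1 to 2 in 2iL and 7 to 15 in FA with ERF knockout. For ERF knockout they ran from 7 to 12 in 2iL and 2 to 13 in FA with RAS present, and from 10 to 13 in 2iL and 17 to 21 in FA with RAS deleted. For the interactions they ran from 15 to 22 for RAS by ERF, 5 to 9 for medium by RAS and 0 to 5 for medium by ERF. Where the lone reference library in FA remained, it was assumed to vary like the other groups.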
